A study of Mus musculus with 36 samples.

Results

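Actin and tubulin transcripts and the transcripts of a few proteins that control actin filaments were followed in 3 brain regions of mice given histone deacetylase (HDAC) inhibitors. The named genes were the actins Actb and Actg1, the tubulins Tuba1a and Tubb3, the actin-binding proteins Cfl1, Pfn1 and Tmsb10, the small GTPase Rac3 and the kinases Rock1 and Rock2. Every probe on the array annotated with 1 of these 10 symbols was taken, which gave 20 probes of 45281 for 9 of the 10 genes, since no probe carried the symbol Actg1. The genes had been chosen by their measured differences from vehicle in HIP under SAHA and Cpd-60 and, for Rock2, under Cpd-60 in any region, so the values of those comparisons are described without a test. The vehicle HIP arrays entered that choice, as did the vehicle arrays of every region for Rock2. Other comparisons that use those arrays, between vehicle regions or with another drug, are therefore not independent of the choice.

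Adult male C57BL/6 mice, labelled C57BL/6J and carrying no engineered allele, received 10 daily intraperitoneal injections of vehicle (saline, PEG-400 and DMSO), Cpd-60 at 45 mg/kg, SAHA at 25 mg/kg or CI-994 at 10 mg/kg, and tissue was taken 1 hour after the last injection. Cpd-60 is a benzamide selective for HDAC1 and HDAC2, SAHA a hydroxamate that inhibits several HDACs, and CI-994 another benzamide HDAC inhibitor. Hippocampus (HIP), the medial part of the prefrontal cortex (PFC) and the nucleus accumbens (NAc) of 6 mice per treatment were combined into 3 pools of 2 mice, so each of the 12 treatment and region groups had 3 arrays, and the 3 regions of a treatment came from the same animals. The doses differed between drugs, so their values stand side by side and were not compared with each other. All the drug comparisons in a region share the same 3 vehicle arrays.

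Actin monomers assemble into filaments that shape dendritic spines and axon tips, and tubulin dimers assemble into microtubules that carry transport along neurites. Profilin and the thymosins bind actin monomers, cofilin severs and depolymerises filaments, Rac GTPases favour branched filament networks, and the kinases Rock1 and Rock2 raise actomyosin contraction and restrain cofilin through LIM kinase. Actb, Tuba1a and Tmsb10 are among the most abundant messenger RNAs of brain, and Actb is often used as a reference gene. Tubb3 and Rac3 are expressed mainly in neurons.

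Promoter sequence is given for the 4 genes whose every probe differed between HIP and PFC of vehicle mice, as described further on. Each run is the 250 bases before an annotated start, read 5′ to 3′ on the gene's strand from RefSeq on GRCm38.p6. That table held 8 of the 10 genes and held neither Actb nor Rock1. Capitals mark the GC box, GGGCGG or its complement CCGCCC, and the CCAAT box, CCAAT or its complement ATTGG, searched on both strands.
Pfn1 (minus strand, chr11:70654651-70654900): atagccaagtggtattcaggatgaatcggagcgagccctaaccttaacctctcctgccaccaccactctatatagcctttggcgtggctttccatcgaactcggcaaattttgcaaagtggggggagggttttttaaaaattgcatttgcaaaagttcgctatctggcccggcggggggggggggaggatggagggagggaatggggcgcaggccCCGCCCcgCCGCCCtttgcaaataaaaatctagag
Tmsb10 (minus strand, chr6:72958749-72958998, the first of 3 annotated starts): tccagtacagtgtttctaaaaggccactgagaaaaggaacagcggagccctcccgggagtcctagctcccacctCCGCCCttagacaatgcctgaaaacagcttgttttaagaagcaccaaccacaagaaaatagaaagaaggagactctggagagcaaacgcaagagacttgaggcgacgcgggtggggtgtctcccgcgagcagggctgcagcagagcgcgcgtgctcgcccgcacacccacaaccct
Tuba1a (minus strand, chr15:98953502-98953751): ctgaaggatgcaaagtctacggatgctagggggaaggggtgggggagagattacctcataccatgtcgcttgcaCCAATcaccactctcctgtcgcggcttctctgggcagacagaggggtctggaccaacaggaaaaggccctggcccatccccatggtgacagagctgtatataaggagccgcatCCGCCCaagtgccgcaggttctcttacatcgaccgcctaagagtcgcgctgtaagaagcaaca
Rac3 (plus strand, chr11:120721218-120721467): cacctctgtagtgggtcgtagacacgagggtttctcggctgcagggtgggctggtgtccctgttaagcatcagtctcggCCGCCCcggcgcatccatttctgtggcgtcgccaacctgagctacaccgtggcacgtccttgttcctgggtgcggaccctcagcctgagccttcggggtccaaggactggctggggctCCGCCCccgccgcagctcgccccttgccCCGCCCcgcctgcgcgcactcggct
The Rac3 window held 3 GC boxes, that of Pfn1 held 2, and those of Tmsb10 and Tuba1a held 1 each. Among 32851 promoter windows of this length, 32.7% held a GC box and 33.8% held a CCAAT box, which among these 4 only Tuba1a had. The TATA box letters TATAAA occurred in 12.4% of all windows and in none of the 4. CpG pairs numbered 22 in Rac3, 14 in Tmsb10, 12 in Pfn1 and 11 in Tuba1a, against a median of 6 over all windows. These are matches of letters and were not tested for factor binding.

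The arrays differed in brightness. Over the 36 arrays the median raw intensity ran from 82.2 to 108.3 and the 95th percentile from 349.9 to 1079.7, and on average 37.3% ± 2.75 (SD, n = 36) of probes were detected at p of at most 0.01. Arrays of a group correlated at 0.970 to 0.994. In HIP, the 3 SAHA arrays had 95th percentiles of 665.2, 437.7 and 452, against 593.6 to 850.1 on the other 9 HIP arrays, so SAHA pools 2 and 3 were dimmer than every other HIP array. Regional identity matched the labels, with 8 of 8 striatal markers higher in NAc than PFC, 5 of 5 hippocampal markers higher in HIP than PFC and 6 of 8 cortical markers lower in NAc than PFC.

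The 20 probes covered almost the whole range of the array. The brightest, an Actb probe (ILMN_2698799), had raw intensities of 2880.5 to 8718 with a median of 5834, above 99.5% to 99.9% of all probes of its array, yet it reached at most 63.0% of the intensity of the brightest probe, so none of the 20 sat at the array's ceiling. Probes ILMN_1377923 and ILMN_2617433 for Actb, ILMN_3067068 for Tmsb10 and ILMN_2916705 for Tuba1a were also bright, the Tmsb10 probe at 1177.9 to 8329.4 and the Tuba1a probe at 1352.5 to 6254.3. The same gene was also read by dim probes, since the other Actb probes (ILMN_2846865 and ILMN_2588055) had raw intensities of 87.1 to 232.7 over both. Rac3 (ILMN_2696749) gave 109.4 to 330.8, Rock2 (ILMN_1248041) 101 to 304.9, Cfl1 98.4 to 214.2 and Rock1 87.6 to 184.9. The Tubb3 probe, for neuronal beta-III tubulin, stayed between 77 and 118.6 and was detected at p of at most 0.2 on 15 arrays, which allowed a test in HIP and not in PFC or NAc. A Rock2 probe (ILMN_2891157), at 70.4 to 102.5, passed the detection filter in no region. After the filter, 18 probes of 8 genes were tested in PFC and NAc and 19 probes of 9 genes in HIP. All values below are log2 of quantile-normalized intensity unless raw intensity is named, and levels of different probes are not comparable with each other.

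In vehicle mice some members differed by region, mainly between HIP and the other regions, and the differences ran in opposite directions for different genes. HIP had more Pfn1 and Tuba1a and less Tmsb10, Rac3 and Rock2 (1 of 2 tested probes) than PFC, and NAc had less Rac3 than PFC. In bulk tissue, fewer cells of a type and less RNA per cell cannot be told apart. Each array slide (BeadChip) held 1 region, so region and BeadChip cannot be fully told apart either. Of 19 probes tested between HIP and PFC, 10 passed an adjusted p of 0.05 (limma, Benjamini-Hochberg over 26594 probes), 4 higher and 6 lower in HIP, where 20.4% of all probes tested passed (10.3% higher and 10.1% lower). The corresponding counts were 3, all lower in NAc, between NAc and PFC (15.2% of all probes, 6.71% higher and 8.5% lower) and 5, 4 higher and 1 lower in HIP, between HIP and NAc (13.3%, 5.95% higher and 7.33% lower). The count between NAc and PFC was thus near the share over all probes.

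Tmsb10, thymosin beta-10, which sequesters actin monomers, had the widest fall among the member probes between these regions. Its bright probe read 12.39, 12.04 and 12.12 in the vehicle PFC pools, 11.93, 11.85 and 12.18 in NAc and 11.13, 10.97 and 11.11 in HIP. All 3 HIP pools lay below every pool of the other regions, while NAc and PFC overlapped. HIP was lower than PFC by a log2 difference of -1.12 (SE 0.18, adjusted p = 5.48e-05 by limma), a fold of 0.462, and lower than NAc by -0.92 (adjusted p = 0.000499 by limma). The other Tmsb10 probes also fell from PFC to HIP, by log2 differences of -1.05 and -0.48 (adjusted p = 0.0107 and 0.00543 by limma), and the dimmest of them (ILMN_1225332) fell from PFC to NAc as well, by -0.44 (adjusted p = 0.0112 by limma). Raw intensities of ILMN_1225332 were 94.7 to 242.8, close to the array medians, which limits how well its differences are measured. The order of Tmsb10 levels on the bright probe was therefore PFC and NAc, which did not differ beyond their spread (-0.20, SE 0.18), and then HIP.

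Rac3, a Rac GTPase of neurons, was highest in PFC. Its brighter probe read 8.27, 8.24 and 7.93 in PFC, 7.43 ± 0.10 (SD, n = 3) in NAc and 7.88, 7.70 and 7.83 in HIP, so the 3 regions of vehicle mice did not overlap. NAc was below PFC by -0.71 (SE 0.11, adjusted p = 3.78e-05 by limma) and the other probe by -0.69 (adjusted p = 0.000101 by limma). HIP was below PFC by -0.34 and -0.49 on the same probes (adjusted p = 0.0349 and 0.00403 by limma), and above NAc by 0.37 on the brighter probe (adjusted p = 0.0282 by limma) and by 0.20 on the other (adjusted p = 0.327 by limma). Rac3 was chosen by a difference from these vehicle HIP arrays, so its tests with HIP are not independent of the choice.

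Pfn1, profilin-1, and Tuba1a, the alpha-tubulin of growing and adult neurons, were highest in HIP. The Pfn1 probes were 9.21 ± 0.05 and 7.42 ± 0.19 in PFC, 9.19 ± 0.13 and 7.80 ± 0.21 in NAc and 9.63 ± 0.15 and 8.47 ± 0.07 in HIP (SD, n = 3 each). HIP exceeded PFC by 0.42 and 1.05 (adjusted p = 0.00782 and 8.54e-05 by limma) and NAc by 0.44 and 0.68 (adjusted p = 0.00702 and 0.00817 by limma). The bright Tuba1a probe was 11.31 ± 0.12 in PFC, 11.33 ± 0.26 in NAc and 11.96 ± 0.21 in HIP, a rise of 0.65 from PFC and 0.63 from NAc (adjusted p = 0.0228 and 0.0376 by limma). The dim Tuba1a probe (ILMN_2494251) rose by 1.85 from PFC to HIP (SE 0.56, adjusted p = 0.0186 by limma). Within NAc, the BeadChips differed without overlap by 1.93 on this probe and by 0.62 on the bright one, close to these differences between regions. Pfn1 ILMN_2863965 differed by 0.40 between the NAc BeadChips, also without overlap. The part of the BeadChip in the order of regions was not tested on these probes.

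Rock2 and the actin probes completed the picture. Rock2 (ILMN_1248041) fell from 7.73 ± 0.11 in PFC to 7.28 ± 0.08 in HIP (SD, n = 3), a log2 difference of -0.46 (adjusted p = 0.00269 by limma), with NAc between them at 7.46 ± 0.04 and past the threshold against neither. Its other tested probe went the other way in value, 6.75 ± 0.05 in PFC and 6.99 ± 0.10 in HIP (adjusted p = 0.127 by limma). None of the 5 Actb probes, nor Cfl1 (cofilin-1), Rock1 or Tubb3, passed in any pair of regions. The Actb differences between HIP and PFC ran from 0.00 to 0.30 with SEs of 0.17 to 0.31.

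**Figure D1:**
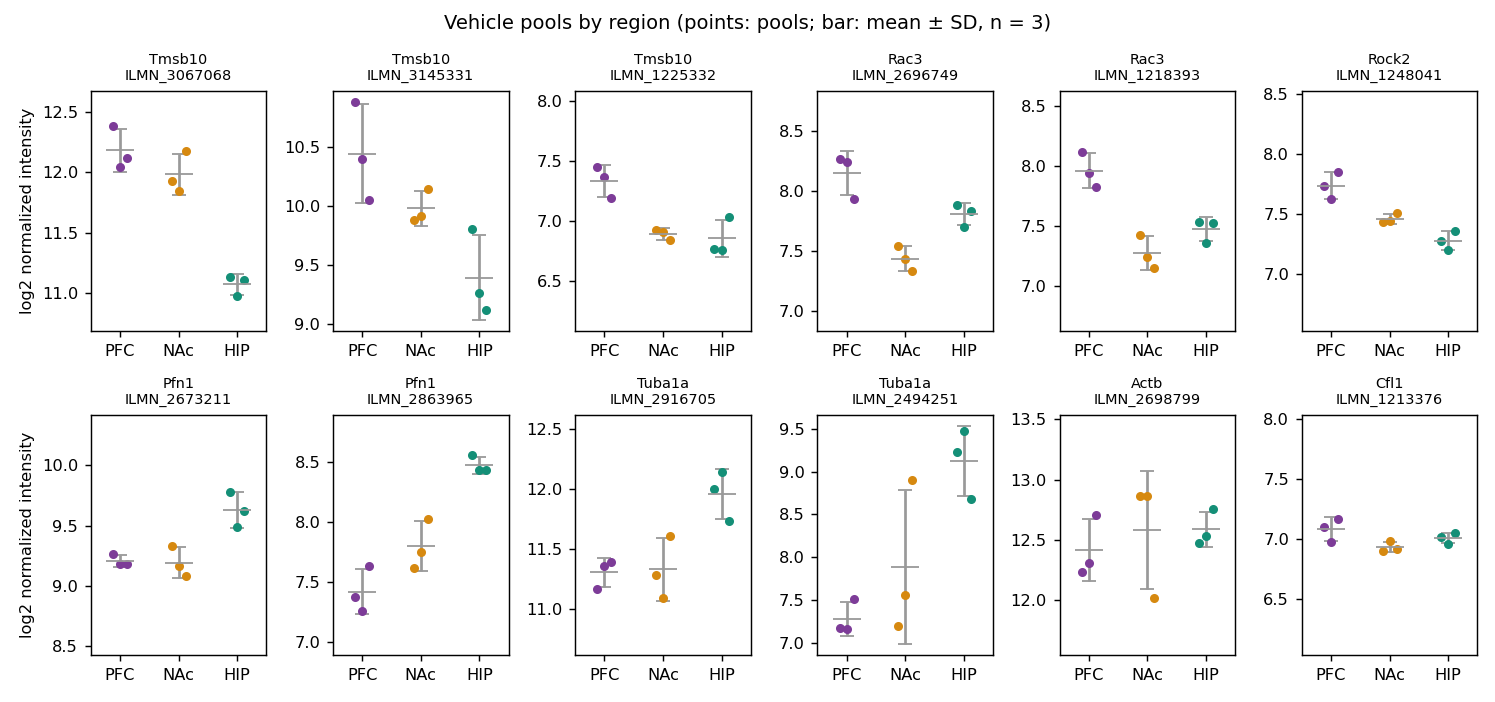
Log2 normalized intensity of member probes in the 3 vehicle pools of PFC, NAc and HIP, with each point a pool of 2 mice and the grey marks the mean ± SD of 3 pools. Tmsb10 drops to about 11.1 in HIP, Rac3 is highest in PFC, and Pfn1 and Tuba1a are highest in HIP.

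Most of the separations between HIP and PFC were also seen in the treated animals. Treated and vehicle arrays of a region shared its BeadChips, so this agreement cannot separate region from BeadChip. The HIP arrays of vehicle, Cpd-60 and SAHA also entered the choice of genes. The share of all probes that separate in this way was not counted, so the separations are described only. HIP lay wholly below PFC for the brighter pair of Tmsb10 probes and for both Rac3 probes, and wholly above PFC for both Pfn1 and both Tuba1a probes, in each of the 4 treatments. Tmsb10 on its bright probe was lower in HIP than in NAc by -0.92 under vehicle, -0.66 under Cpd-60, -1.10 under SAHA and -0.71 under CI-994, without overlap in any of them. Rac3 and Rock2 changed order in value between HIP and NAc under Cpd-60 and SAHA. The HIP values of these drugs chose the genes, so the change of order is described only and nothing is read from it. Rac3 on its brighter probe was 0.37 higher in HIP under vehicle and 0.25 higher under CI-994, but -0.05 under SAHA and -0.22 under Cpd-60, where all 3 HIP pools lay below all 3 NAc pools. Its dimmer probe gave 0.20 under vehicle, 0.27 under CI-994, -0.09 under SAHA and -0.24 under Cpd-60, without overlap only under CI-994. Rock2 (ILMN_1248041) was lower in HIP than in NAc by -0.18 under vehicle, without overlap, and by -0.09 under CI-994, but stood at 0.11 under Cpd-60 and 0.24 under SAHA, where all 3 HIP pools lay above all 3 NAc pools. The same probe lay wholly below PFC in HIP in each treatment except CI-994.

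Other cell types moved with these regional values. All 7 oligodendrocyte markers tested were higher in HIP than in PFC (median 1.25) and in NAc than in PFC (median 0.65), and 4 of 7 were higher in HIP than in NAc. Their mean log2 level ran from 9.67 to 9.99 over the vehicle PFC pools, 10.5 to 10.9 over NAc and 11.2 to 11.4 over HIP. In HIP against PFC, 3 of 4 choroid plexus markers and 1 of 8 microglia markers were higher. Of 7 astrocyte markers, 3 were higher and 1 was lower, and 2 of 5 neuronal and 2 of 6 endothelial markers were lower. Over all probes 10.3% were higher and 10.1% lower. Their part in the member values was not tested. Many of the calls depended on Vehicle pool 1 or pool 2. Without pool 1, 3 of 19 member probes passed between HIP and PFC and 1 between HIP and NAc. Without pool 2 the counts were 4 and 2, and without pool 3 they were 10 and 3.

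Lists of related genes, 1 probe a gene, were also compared between regions. The first list held the Arp2/3 complex, which starts branched filaments, its activators and other actin nucleators. Of its 21 tested genes, 10 were higher and 1 was lower in HIP than in PFC. Their median log2 difference was 0.31 against -0.02 over all probes, of which 10.3% were higher and 10.1% lower. Arpc2 (2.77), Actr3 (2.23) and Abi1 (1.74) differed most. Their vehicle NAc pools varied widely, with SDs of 1.12, 0.69 and 0.62 against 0.24, 0.08 and 0.08 in HIP. The NAc SDs of Dstn (0.66), Rhob (0.81), Ftl1 (0.93) and Ywhaz (0.77), named further on, were also large (n = 3 each). Whether these spreads followed the NAc BeadChips was not tested. Of 9 other tubulins, 6 were lower and none higher in NAc than in PFC (8.5% and 6.71% of all probes), with a median of -0.50 against -0.00 over all probes, led by Tubb4 (-1.08), Tuba4a (-0.80) and Tubb2b (-0.79). Of those 9, 4 were higher in HIP than in NAc (5.95% of all probes), among them Tubb2c (0.69) and Tubb2b (0.64), and Tuba8 (0.40) was the one that was higher in HIP than in PFC.

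Of 21 microtubule-associated proteins, 8 were lower and none higher in NAc than in PFC (8.5% and 6.71% of all probes), and 6 were lower and 1 was higher in HIP than in PFC (10.1% and 10.3%), while the others did not pass. Stmn2, which destabilises microtubules and is also in the neuronal marker list, had the widest difference between NAc and PFC at -1.53, and Mtap6, a microtubule-stabilising protein, was -0.84 in HIP against PFC. Among 19 other genes for actin monomer binding, severing and capping, 4 were higher and 3 lower in HIP than in PFC. These included Dstn (1.47), a relative of cofilin, and Pfn2 (0.57), the neuronal profilin, above PFC, and Actn4 (-0.83), a filament crosslinker, below it. The 22 small GTPases, their kinases and myosins split evenly between HIP and PFC, 5 higher and 5 lower, with Rhob at 1.79 and Myh10 at -0.90. Of 28 other abundant transcripts, 6 were higher and none lower in HIP than in PFC, led by Ftl1 (1.77) and Ywhaz (1.41), where 10.3% of all probes were higher and 10.1% lower.

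None of the drugs changed a member at an adjusted p of 0.05 in any region (limma, 9 comparisons), and in none of the 9 did any of the 22156 to 23275 probes tested pass, so the background was 0%. The lists of related genes gave no call either. Their largest separated differences past a looser rule, given next, were Rhob (0.40) and Actn1 (-0.27) under Cpd-60 in PFC, Cdc42bpb (0.31) in NAc and Nckap1 (0.30) in HIP, Tmod2 (-0.27) under SAHA in NAc, and Dclk1 (-0.27) in PFC and Ywhaz (-0.29) in HIP under CI-994. By that looser rule, an unadjusted p under 0.05 with at least a 1.2-fold difference, 1 member probe passed for Cpd-60 in PFC (1.11% of all probes tested), 2 in NAc (1.78%) and 4 in HIP (1.53%). SAHA gave none in PFC (0.217%), 1 in NAc (0.546%) and 3 in HIP (3.17%), and CI-994 gave none in PFC, NAc or HIP (0.654%, 0.383% and 0.67%). The HIP counts for Cpd-60 and SAHA come from comparisons that chose the genes, and nothing is read from them. One of the Cpd-60 probes in NAc and the SAHA probe in NAc were Rock2 ILMN_1248041, which was chosen by its Cpd-60 values against the same vehicle arrays, so these are likewise no evidence. At an unadjusted p under 0.05 alone, limma gave 4, 2 and 5 member probes for Cpd-60 in PFC, NAc and HIP (5.19%, 4.77% and 5.26% of all probes), 1, 2 and 5 for SAHA (2.25%, 2.05% and 9.37%) and 0 in each region for CI-994 (3.98%, 1.99% and 3.24%).

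Some member probes had groups that did not overlap, every treated pool lying above or below every vehicle pool. In PFC this was so for 1 probe higher and 2 lower under Cpd-60, where 4.87% and 4.81% of all probes did so, and for 1 higher under SAHA (4.41%). In NAc it was so for 1 higher and 2 lower under Cpd-60 (4.26% and 5.12%), 3 lower under SAHA (3.73%) and 1 lower under CI-994 (4%). In HIP, 2 were higher and 3 lower under Cpd-60 (5.78% and 6.43%), 3 higher and 2 lower under SAHA (8.45% and 10.8%) and 1 higher under CI-994 (4.98%). The Rock2 probe ILMN_1248041 is 1 of the lower probes under each drug in NAc, and the HIP counts for Cpd-60 and SAHA come from the choosing comparisons. With 18 or 19 probes tested, several of them for the same gene, these counts are small.

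**Figure D2:**
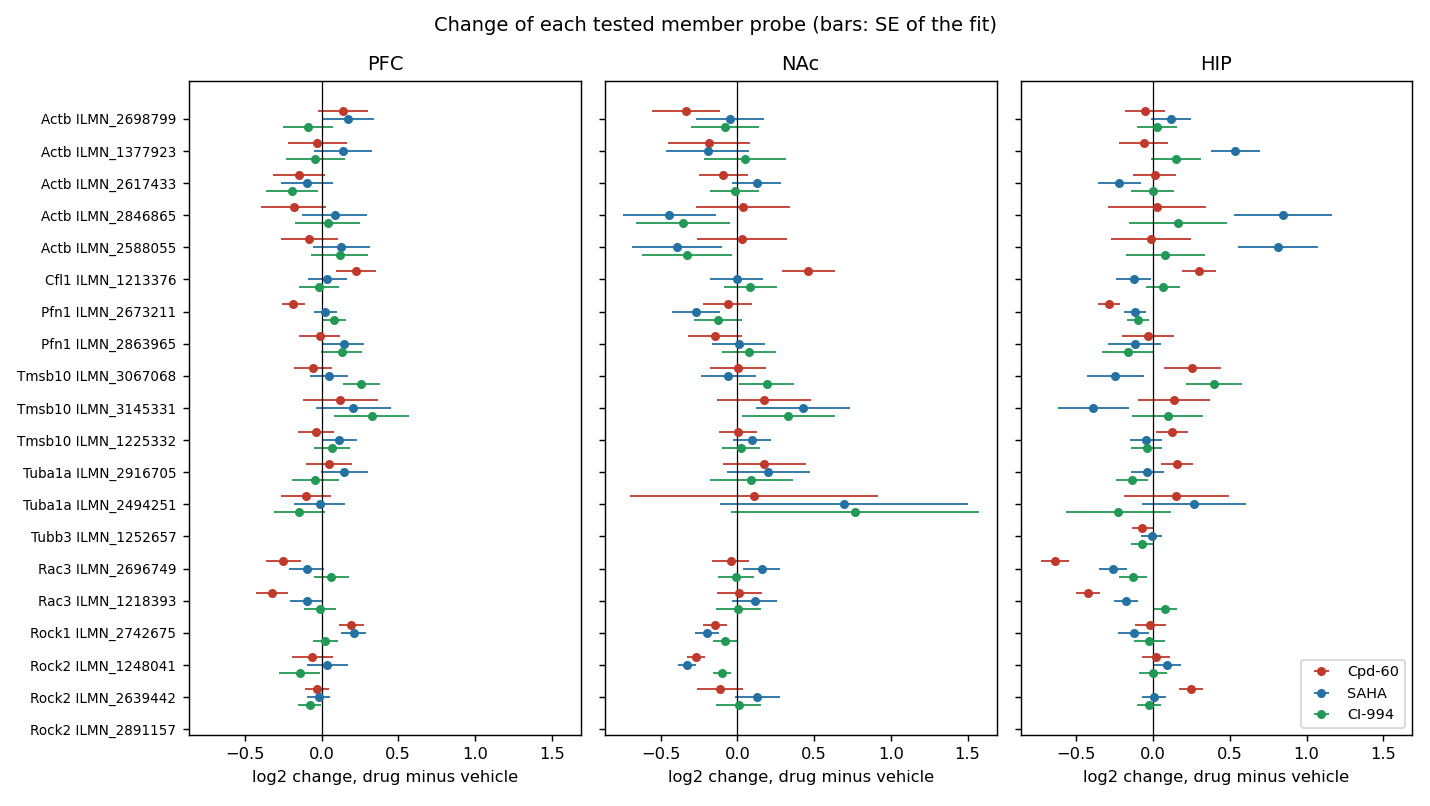
Log2 difference from vehicle of every member probe tested, by drug and region, with horizontal bars for the SE of the fit. Most points lie close to 0. The widest values in HIP are the dim Actb probes under SAHA at 0.85 and 0.81 and Rac3 under Cpd-60 at -0.64, and in NAc the dim Tuba1a probe stands at 0.77 under CI-994 and 0.70 under SAHA.

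Actb, cytoplasmic beta-actin, was 1 of the genes behind the choice, through its HIP values under SAHA. The dim probe ILMN_2846865 read 6.69, 7.05 and 7.34 in the vehicle pools and 7.40, 7.87 and 8.35 in the SAHA pools, a log2 difference of 0.85 or 1.80-fold. ILMN_2588055 read 6.74, 7.13 and 7.32 against 7.48, 7.77 and 8.37, a difference of 0.81. The bright probe ILMN_1377923 read 11.42, 11.67 and 11.75 against 11.98, 12.13 and 12.34, a difference of 0.53. On these 3 probes every SAHA pool lay above every vehicle pool. The other bright probes did not follow. ILMN_2698799 read 12.47, 12.53 and 12.75 against 12.60, 12.70 and 12.81, a difference of 0.12 with overlapping groups, and ILMN_2617433 read 11.53, 11.41 and 11.59 against 11.31, 11.26 and 11.29, a difference of -0.22 with every SAHA pool lower. The 5 probes of this gene thus gave HIP differences of both signs.

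The raw intensities behind those values were less separated. ILMN_2846865 had 108.2, 139.1 and 160.8 in vehicle and 165.5, 166.8 and 229.1 in SAHA, still without overlap, whereas ILMN_1377923 had 3304, 3854 and 3524 in vehicle and 3914, 3000.3 and 3468 in SAHA. ILMN_2698799 fell from 6750.3, 6668 and 7393 to 5885, 4765 and 5000.3 in raw intensity. Scaling decided the sign of the brightest probe. Its SAHA difference was 0.12 after quantile normalization, -0.17 after scaling to the 75th percentile and -0.42 unscaled, and that of the 500 brightest probes together had medians of -0.00, -0.34 and -0.58. Over all tested probes the medians were -0.01, 0.02 and -0.22. The 2 dim probes and ILMN_1377923 kept positive values after 75th percentile scaling (0.70, 0.66 and 0.20), while unscaled values were 0.46, 0.42 and -0.05. With the dim SAHA pools 2 and 3 left out, the 3 differences were 0.37, 0.42 and 0.36. Within BeadChips they were 0.53 and 0.77 for ILMN_2846865, 0.54 and 0.76 for ILMN_2588055 and 0.43 and 0.48 for ILMN_1377923.

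**Figure D3:**
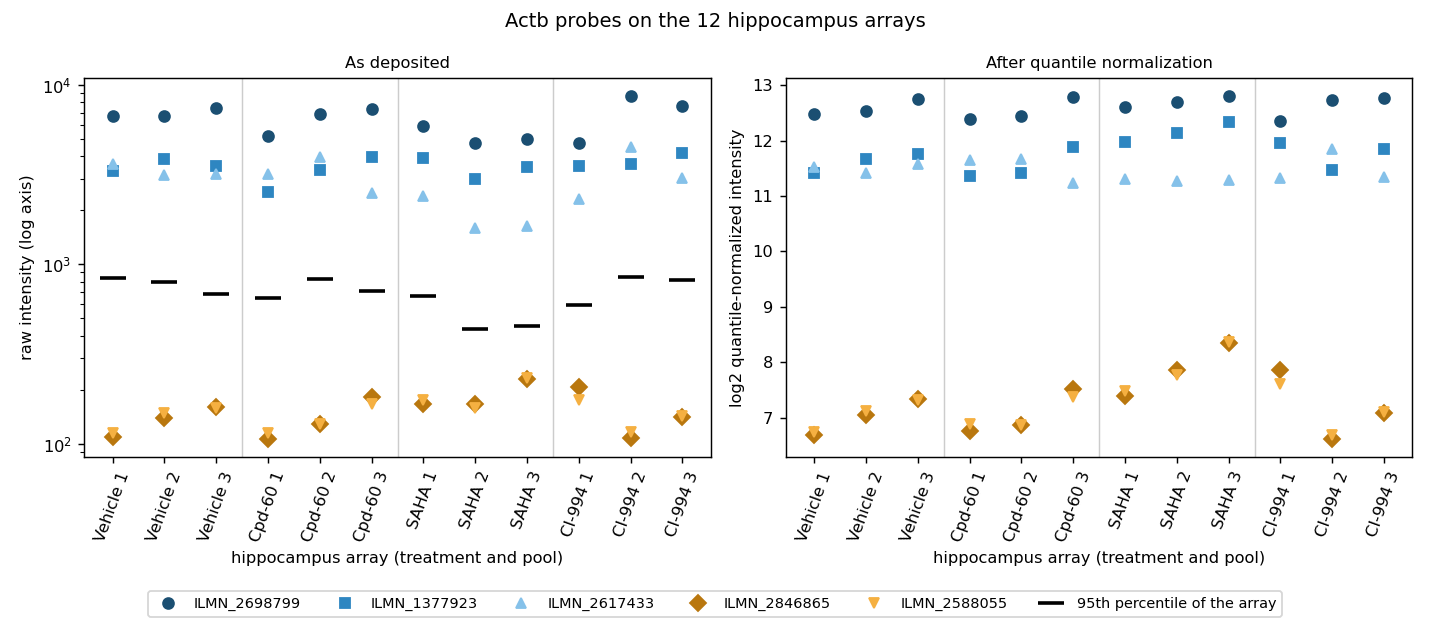
The 5 Actb probes on the 12 HIP arrays, with raw intensity on a log axis at left, where black dashes give the 95th percentile of each array, and log2 normalized intensity at right, each point an array. After normalization the SAHA pools lie above the vehicle pools on ILMN_2846865, ILMN_2588055 and ILMN_1377923, overlap them on ILMN_2698799 and lie below them on ILMN_2617433.

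Across the 36 arrays, with each region's mean removed, the dim Actb probes followed each other (Pearson r = 0.98) and ILMN_1377923 (r = 0.85), and ILMN_1377923 and ILMN_2617433 did not (r = -0.12). These correlations describe arrays that share processing and depth and carry no test. A high value was not particular to SAHA pools, since CI-994 pool 1 in HIP read 7.87 and 7.62 on the dim probes. The other Actb results were small or variable. In PFC and NAc no Actb probe passed an unadjusted p of 0.05 with a 1.2-fold difference under any drug.

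In the same SAHA and vehicle HIP pools, 12 of the 19 member probes tested, those of Actb included, had negative differences, with a median of -0.05 over the 19 against -0.01 over all probes. Tmsb10 was -0.25, -0.39 and -0.05 on its 3 probes, Pfn1 -0.12 on both, and Rac3 -0.26 and -0.17. Under 75th percentile scaling 7 members were lower and 2 higher by the looser rule, and unscaled 8 were lower and none higher, against 3 higher and none lower after quantile normalization. Over all 23275 probes tested there, 5181 were called under 75th percentile scaling, 7791 unscaled and 738 after quantile normalization, and nothing is read from the member counts of this choosing comparison. The share of higher calls among them was 44.3%, 24.3% and 0.0128% in the same order of quantile, 75th percentile and unscaled values. Of the oligodendrocyte markers, 3 of 7 were lower in SAHA HIP by the looser rule (median -0.23), with mean log2 levels of 11.03 to 11.17 against 11.22 to 11.41 in vehicle, and their part in the member values was not tested. Among the related genes, Tmsb4x (-0.35), the other main brain thymosin, Tubb4 (-0.61), Stmn2 (-0.31) and Cdc42bpb (-0.27) had the largest separated differences of their lists, and Calm2, from the abundant transcripts, was at 0.28.

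Rac3 under Cpd-60 in HIP was another reason for the choice. The brighter probe read 7.88, 7.70 and 7.83 in vehicle and 7.29, 7.11 and 7.10 in Cpd-60 pools, a log2 difference of -0.64 or 0.642-fold. The other probe read 7.54, 7.36 and 7.52 against 7.22, 6.97 and 6.96, a difference of -0.42. Both probes separated the groups fully, and raw intensity did so as well for the brighter one, at 282.4, 230.7 and 224.2 against 152.3, 155.3 and 136.7. Each difference held its sign in each of the BeadChips, at -0.59 and -0.74 for the brighter probe and -0.35 and -0.57 for the other. Over 21 alternative settings they ranged from -1.13 to -0.60 and from -0.86 to -0.38.

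In PFC of the same animals, which played no part in the choice, Rac3 was lower under Cpd-60 by less. The dimmer probe (ILMN_1218393) read 8.11, 7.94 and 7.83 in vehicle and 7.82, 7.74 and 7.36 in Cpd-60 pools, with no overlap but a gap of less than 0.01. The difference was -0.32 (SE 0.11, unadjusted p = 0.0103, adjusted p = 0.904 by limma), and without Vehicle pool 1 it was -0.24 (unadjusted p = 0.0547 by limma). The brighter probe averaged 8.15 ± 0.18 in vehicle and 7.90 ± 0.23 under Cpd-60 (SD, n = 3), a difference of -0.25 with overlapping groups (unadjusted p = 0.0482, adjusted p = 0.959 by limma). In NAc the Rac3 differences were -0.04 and 0.01. Under CI-994 the dimmer probe differed from vehicle by -0.01, 0.01 and 0.08 in PFC, NAc and HIP, and the brighter one by 0.06, -0.01 and -0.13.

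Rock2 on its brighter probe (ILMN_1248041) was lower in NAc of treated mice than of vehicle mice. It read 7.43, 7.44 and 7.51 in the vehicle pools, 7.17, 7.11 and 7.29 under Cpd-60, 7.08, 7.17 and 7.13 under SAHA, and 7.34, 7.37 and 7.38 under CI-994. Every treated pool lay below every vehicle pool, and all 3 comparisons used the same vehicle arrays. For Cpd-60, where Rock2 was chosen, the difference was -0.27. For SAHA it was -0.33, and -0.35 within each BeadChip, and for CI-994 it was -0.10. Since the choice of Rock2 used these vehicle arrays, the SAHA and CI-994 differences are given without a test. The other tested Rock2 probe (ILMN_2639442) overlapped vehicle in NAc under each drug, with differences of -0.11 for Cpd-60, 0.13 for SAHA and 0.01 for CI-994. In raw intensity the SAHA and vehicle pools overlapped, at 152.4, 154.7 and 169.7 against 142.4, 157.3 and 226, and the unscaled difference was -0.11. In HIP the dimmer Rock2 probe was higher under Cpd-60 (7.32, 7.21 and 7.17 against 7.03, 7.06 and 6.87, a difference of 0.24), and the brighter one was not (0.02).

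Rock1 read 6.94, 6.83 and 6.98 in vehicle PFC, 7.10, 7.16 and 7.07 under Cpd-60 and 7.07, 7.04 and 7.28 under SAHA. The differences were 0.19 (unadjusted p = 0.0351, adjusted p = 0.930 by limma) and 0.21 (unadjusted p = 0.0250, adjusted p = 0.9999 by limma), both under 1.2-fold. In NAc the vehicle pools read 7.04, 7.01 and 7.14, the Cpd-60 pools 6.79, 6.97 and 6.99 and the SAHA pools 6.87, 6.76 and 6.97, differences of -0.14 and -0.19. In HIP they were -0.02 and -0.13.

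**Figure D4:**
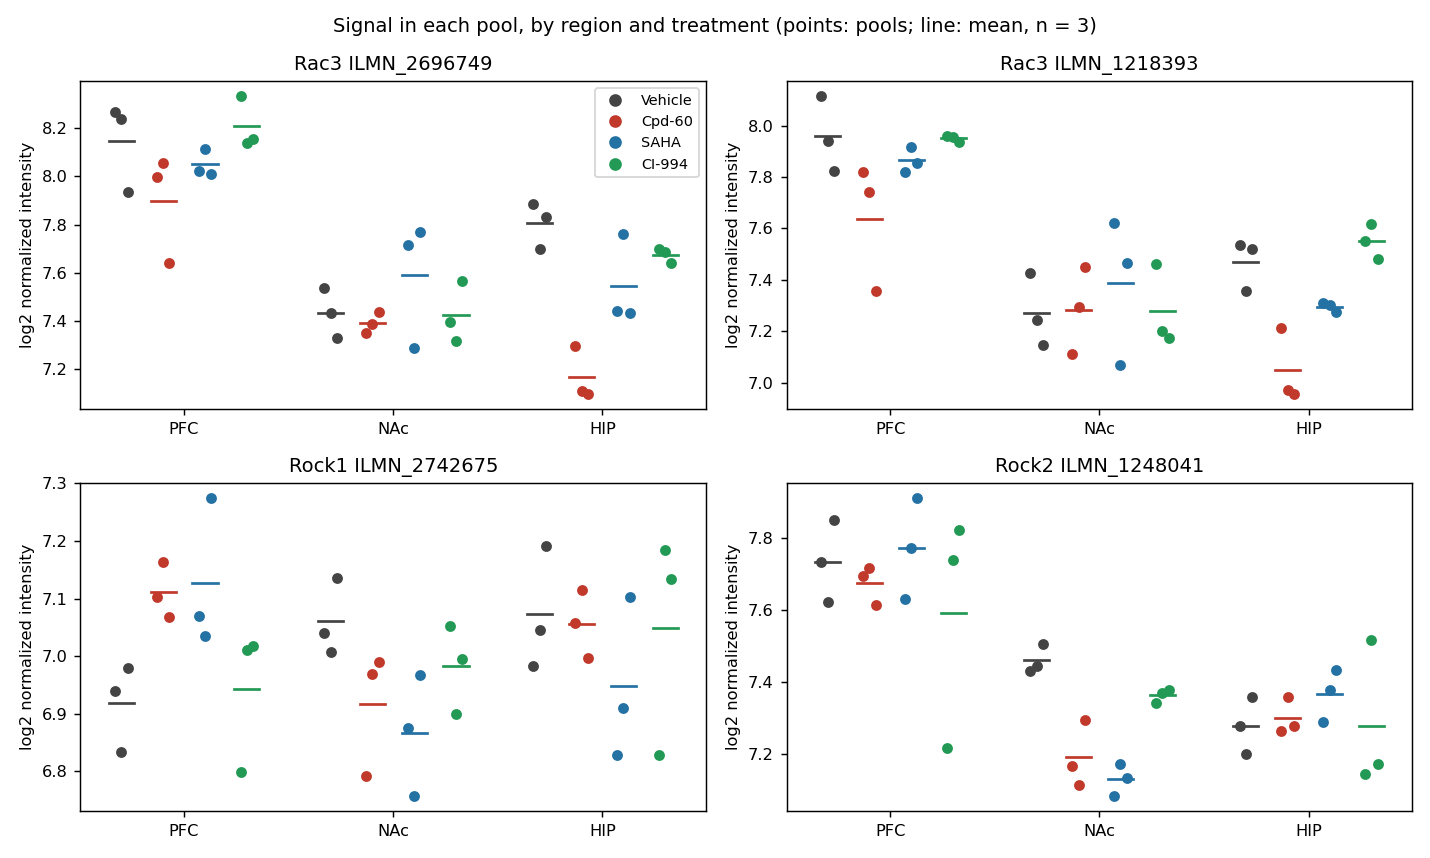
Rac3 (both probes), Rock1 and Rock2 (ILMN_1248041) by treatment and region, log2 normalized intensity, with each point a pool of 2 mice and each line a group mean. Rac3 is lower under Cpd-60 in HIP (by -0.64 on the brighter probe), and on this Rock2 probe the pools of all 3 drugs lie below the vehicle pools in NAc.

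Cfl1, cofilin-1, had higher values under Cpd-60 than under vehicle in NAc and HIP, without overlap, and was highest in 1 pool. In NAc it read 7.11, 7.88 and 7.20 under Cpd-60 against 6.90, 6.98 and 6.92 in vehicle, a difference of 0.46 (SE 0.17, unadjusted p = 0.0212, adjusted p = 0.999 by limma). In PFC pool 2 read 7.69 and the other Cpd-60 pools 7.08 and 7.15, and overlapped vehicle, and in HIP the 3 pools read 7.32, 7.53 and 7.08 against at most 7.05 in vehicle. Pool 2 was thus the highest of the Cpd-60 pools in each region, and it is the same pair of mice throughout by its sample titles. Without it the NAc difference was 0.22 (unadjusted p = 0.0509 by limma). In HIP, a comparison used for the choice, the difference was 0.30 with all pools and 0.19 without pool 2.

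Pfn1 on its brighter probe (ILMN_2673211) had slightly lower values under Cpd-60, and its other probe (ILMN_2863965) differed by -0.01 in PFC, -0.15 in NAc and -0.03 in HIP, with overlapping groups. In PFC the brighter probe read 9.26, 9.18 and 9.18 in vehicle and 9.02, 9.09 and 8.96 under Cpd-60, a difference of -0.19 (SE 0.08, unadjusted p = 0.0289, adjusted p = 0.923 by limma). The groups did not overlap. In HIP it read 9.78, 9.49 and 9.62 against 9.37, 9.36 and 9.30, a difference of -0.29, and in NAc -0.06. Under SAHA in NAc it read 8.97, 9.05 and 8.75 against 9.33, 9.17 and 9.08, a difference of -0.27 (unadjusted p = 0.120 by limma).

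Tmsb10 on its bright probe was higher in value under CI-994, at 12.32, 12.59 and 12.43 in PFC against 12.39, 12.04 and 12.12 in vehicle, a difference of 0.26 (unadjusted p = 0.0548 by limma). In HIP it read 11.43, 11.83 and 11.14 against 11.13, 10.97 and 11.11, a difference of 0.40 (unadjusted p = 0.0514 by limma), and in NAc the difference was 0.19. The HIP difference used the vehicle arrays that entered the choice of genes. No member passed an unadjusted p of 0.05 under CI-994.

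Tuba1a values in NAc split by BeadChip in every treatment. Each region was run on a pair of BeadChips, 1 with pools 1 and 2 of vehicle and Cpd-60 and pool 1 of SAHA and CI-994, and the other with the remaining pools. The chips of a region thus held different mice, so BeadChip and mice cannot be told apart within a region. On the dim probe ILMN_2494251 the 6 NAc arrays of the first chip read 7.15 to 7.56 (raw 109.3 to 189.9) and the 6 of the second 8.91 to 9.52 (raw 568.5 to 965.7), a difference of 1.93. SAHA and CI-994 had more pools on the second chip, and their pooled differences from vehicle of 0.70 and 0.77 (unadjusted p = 0.41 and 0.36 by limma) were -0.22 and 0.39 for SAHA and -0.17 and 0.47 for CI-994 within the chips. The bright Tuba1a probe also split, by 0.62 on average, and so did Pfn1 ILMN_2863965 (7.52 to 7.75 and 7.84 to 8.04) and Rock2 ILMN_2639442 (6.56 to 6.74 and 6.89 to 7.14). That made 4 of 18 member probes, where 13.5% of the 23242 NAc probes split without overlap between the chips, against 0 of 18 and 0.835% in PFC and 1 of 19 (Actb ILMN_2698799) and 1.82% in HIP. Each chip held 1 region, so region and chip cannot be fully told apart. With the BeadChip in the fit as a random block, 9 member probes passed between HIP and PFC and 5 between HIP and NAc. That block used a common correlation for all probes, so it could not fit the chip difference of each probe, such as that of Tuba1a. These counts therefore do not show what the chips contribute.

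**Figure D5:**
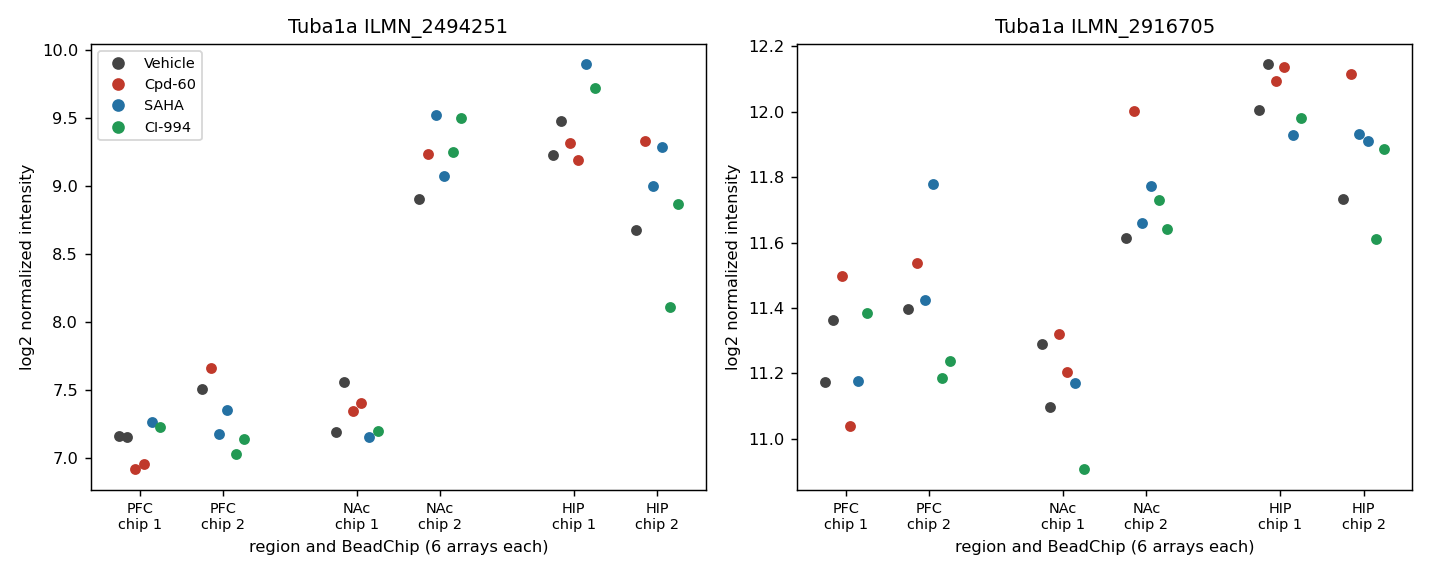
Tuba1a probes ILMN_2494251 (left) and ILMN_2916705 (right), log2 normalized intensity by region and BeadChip, each point an array coloured by treatment. On the left probe in NAc all 6 arrays of the first chip lie at 7.15 to 7.56 and all 6 of the second at 8.91 to 9.52, whatever the treatment.

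Drug effects were also compared between regions in 5 contrasts that did not use the HIP comparisons of SAHA and Cpd-60, although Rock2 was also chosen by Cpd-60 values in PFC and NAc. The CI-994 contrasts with HIP did use the vehicle HIP arrays that entered the choice, so they are not independent of it. None of the 19 member probes passed an adjusted p of 0.05 (limma, 0% of 26594 probes), and 1 for Cpd-60 and 2 for SAHA between NAc and PFC had an unadjusted p under 0.05 (3.65% and 2.35% of all probes), with 0 in each of the 3 contrasts for CI-994. These were Rock1 for both drugs and, for SAHA, Rock2 ILMN_1248041, whose change in NAc minus that in PFC was -0.37 and rests on the vehicle arrays that its choice used. With 3 pools a group the number of arrays limits the precision, and p-values measure the spread between pools.

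By the similarity of their profiles over the 36 arrays, region means removed, the probes most like Actb ILMN_2698799 among 19447 were A930010C08Rik (r = 0.84), Ndufa10 (0.79) and Mllt3 (0.77). Those most like Rac3 ILMN_2696749 were 5730552E08Rik (0.74), 2010007H12Rik (0.73) and LOC100045567 (0.71), and those most like Rock2 ILMN_1248041 were Thoc2 (0.75), Gria2 (0.73) and Nol8 (0.69). The arrays share brightness, BeadChips and normalization, and the values describe the arrays only.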

How the data were processed

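Total RNA was extracted, pooled from 2 mice, labelled as biotinylated cRNA and hybridised to Illumina MouseWG-6 BeadChips (36 arrays). The authors deposited 1 non-normalized table with a summarised intensity and a detection p-value for each of 45281 probes on each array. GeneSpring quantile normalization and baseline transformation, named in the study's methods, were not part of that table. The table had 0 columns of other samples. Arrays were assigned to groups by sample titles (the descriptions of the 3 Cpd-60 pool 2 arrays name other mice than their titles).

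Intensities were quantile normalized over 36 arrays, floored at 1 and log2 transformed (R 4.3.3). A probe was tested, with limma 3.58.1, in a region where any treatment group there had a detection p up to 0.2 on each of its 3 arrays, per region for drugs (12 arrays) and over 36 arrays for regions and for drug effects between regions, with Benjamini-Hochberg adjustment at 0.05. A looser rule was unadjusted limma p under 0.05 with 1.2-fold. The study set 1.2-fold beside Tukey's test, which was run as an alternative. The model fits were tested on simulated data. With 200 probes changed by 1 log2 unit, 88% to 99% were recovered in the 9 drug comparisons, with 7 to 16 false calls. The simulated noise was independent between arrays and held no BeadChip effect. The planted change exceeded every member difference from vehicle after quantile normalization, so the recovery of differences of the observed size was not tested. Members and gene lists were chosen with earlier results of these data known. Named were all member probes, for each list the 3 largest calls or, without a call, the largest separated difference past the looser rule, and the 3 most similar probes for Actb, Rac3 and Rock2.

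Alternatives were neqc, 75th percentile scaling, no scaling, the study's 27 arrays, detection p of 0.01, no filter, BeadChip as a block, a replicate block, Tukey's test and leaving out each pool. The pairing of pools across regions comes from the labels, which give the same mice, and their deviations correlated at -0.46 to 0.56 (median -0.02, 36 pairs). Same-numbered pools of different treatments are different mice.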

Additional observations from a re-analysis of the deposited data

Results flagged for a closer look

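Rock1 (ILMN_2742675) had drug differences of opposite sign in PFC and NAc, with every treated pool above every vehicle pool in PFC and below in NAc for Cpd-60 and for SAHA. Under Cpd-60 the log2 difference from vehicle was 0.19 in PFC and -0.14 in NAc, and the difference between them was 0.34 (SE 0.13, unadjusted p = 0.0119, adjusted p = 0.9998 by limma). Under SAHA the values were 0.21 in PFC and -0.19 in NAc, 0.40 apart (SE 0.13, unadjusted p = 0.00334, adjusted p = 0.9999 by limma). Neither passed the adjustment over 26594 probes, both drugs were set against the same vehicle arrays, and all Rock1 raw intensities were between 87.6 and 184.9, close to the array medians.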

How the results depend on the processing

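The 18 member differences between vehicle regions that passed kept their direction in all 360 alternative values and their adjusted p in 311. Without scaling (log2 raw intensity) 2 probes passed between HIP and PFC, 0 between NAc and PFC and 0 between HIP and NAc. Rac3 ILMN_2696749 between HIP and PFC was lost most often, under 8 of 20 alternatives. Leaving out single pools gave 3 to 10 probes (HIP and PFC), 2 to 4 (NAc and PFC) and 1 to 5 (HIP and NAc), lowest without Vehicle pool 1. Actb ILMN_2698799 passed between NAc and PFC without Vehicle pool 3 (0.59), and Rock2 ILMN_1248041 did so with 27 arrays (-0.27) and without CI-994 pool 1.

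For drugs, member probes passed an adjusted p only in HIP under SAHA with 75th percentile scaling, where 4 did, all lower, as did 1480 of all 23275 probes, in a comparison that chose the genes (Actb ILMN_2617433, Pfn1 ILMN_2673211, Tmsb10 ILMN_3067068 and Rac3 ILMN_2696749). Counts by the looser rule moved more. With 75th percentile scaling they were 1 for Cpd-60 in NAc, 9 for SAHA in HIP and 1 for CI-994 in HIP. Without scaling they were 0 for Cpd-60 in PFC and in NAc, 2 for Cpd-60 in HIP, and 1, 0 and 8 for SAHA in PFC, NAc and HIP. With neqc they were 2 for Cpd-60 in PFC, 1 for SAHA in PFC and 2 for SAHA in NAc. With Tukey's test, which does not apply to regions, they were 0 for Cpd-60 in PFC, 1 for Cpd-60 in NAc and 0 for SAHA in HIP. CI-994 in HIP had 1 with detection p of at most 0.01 and 1 with no filter, and CI-994 had no value with 27 arrays, which leave it out. Without SAHA pools 2 and 3 in HIP, a choice made after seeing the data, 1 passed there and the lone SAHA pool was taken to vary like the other groups. Leaving out single pools gave, in PFC, NAc and HIP, 0 to 3, 0 to 2 and 3 to 5 for Cpd-60, 0 to 0, 1 to 3 and 1 to 4 for SAHA and 0 to 2, 0 to 1 and 0 to 2 for CI-994. The lowest were without Cpd-60 pool 2 (NAc) and without SAHA pool 3 (HIP), and the highest without Cpd-60 pool 1 (PFC), SAHA pool 2 (NAc) and, for CI-994, Vehicle pool 1 (PFC), Vehicle pool 3 (NAc) and CI-994 pool 1 (HIP). The cause of these moves was not tested.

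With the replicate block, 2 probes passed the looser rule for SAHA in NAc, 1 for CI-994 in HIP and 3 for Cpd-60 in NAc, and the counts between vehicle regions stayed 10, 3 and 5. Same-numbered pools of different treatments correlated at -0.42 to 0.86 (median 0.21, 32 of 54 pairs over 0.1). They are different mice by the labels and not every pair was over 0.1, so the number was not taken to pair them. Within a region, pools numbered 1 shared a BeadChip, as did pools numbered 3, and the part of the BeadChip in these correlations was not tested.

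Of 72 medians of the lists of related genes, 16 moved with neqc, 33 with 75th percentile scaling and 63 without scaling. Scaling also moved the percentage of all looser calls that were higher. In the order quantile, neqc, 75th percentile and unscaled it was, in PFC, 60.6, 49.1, 76.1 and 85.9 for Cpd-60, 66.7, 56.4, 92.3 and 99.9 for SAHA and 51.0, 52.0, 24.8 and 97.6 for CI-994. In NAc it was 45.4, 43.5, 36.3 and 14.3 for Cpd-60, 27.6, 43.4, 59.6 and 100 for SAHA and 22.5, 42.9 and 44.4, with no unscaled call, for CI-994. In HIP it was 47.6, 45.6, 22.2 and 10.5 for Cpd-60 and 41.03, 53.0, 42.2 and 13.5 for CI-994. Of calls at an adjusted p between vehicle regions it was 50.6, 51.9, 57.3 and 93.4 (HIP and PFC), 44.1, 45.7, 35.6 and 55.8 (NAc and PFC) and 44.8, 45.5, 55.8 and 69.5 (HIP and NAc). Unscaled medians over all probes were 0.16 and 0.12 for HIP and NAc against PFC, 0.19 and 0.18 for SAHA in PFC and NAc, 0.12 and 0.10 for CI-994 there and -0.22 for SAHA in HIP, and with 75th percentile scaling -0.10 for HIP against PFC. Rock1, Cfl1, Tubb3, the dim Actb probes, Tmsb10 ILMN_1225332 and Rock2 ILMN_2639442 had raw intensities close to the array medians, which limits how well their differences are measured.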
